A study of Homo sapiens with 6 samples.

Results

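The resting transcriptome of U251 cells was described from the 3 control libraries of the series. U251 is an established human glioblastoma line, and the genes described were the protein-coding genes with an FPKM (fragments scaled to the gene's exonic length and to library size) of 1 or more in all 3 control libraries. This rule kept 10176 of 19951 protein-coding genes, or 51.0%, in a table of 58735 genes. Counts of genes kept in a list or family are to be read against this share. The series holds 6 RNA-seq libraries and was made to examine the response of U251 cells to tumour necrosis factor-α (TNF-α). The control cells (NC group, n = 3 biological replicates) received sterile deionized water in place of the cytokine for 24 h, in high-glucose medium with fetal bovine serum. The 3 cytokine-treated libraries were not compared here. All values come from 1 line in culture, so levels in tumour tissue and the presence of other cell types around a tumour were not measured. Bulk libraries do not separate the number of cells that express a gene from its level per cell.

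Glioblastoma is a malignant brain tumour of glial character, in which astrocyte, stem-like and mesenchymal programs are mixed. Mesenchymal tumours are known for high levels of matrix, cytoskeletal and wound-response genes, and proneural tumours for genes of the oligodendrocyte lineage. TNF-α signals through the receptors TNFRSF1A and TNFRSF1B, and the adaptor TRAF2 is recruited to both. FASN makes palmitate, the first long-chain fatty acid of de novo synthesis.

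The recovered reads in genes ranged from 34204083 to 37897044 per library, of which 98.4% ± 0.0276 (SD, n = 3) lay in protein-coding genes. In a gene of 2 kb, 3 reads corresponded to an FPKM between 0.0415 and 0.0467, which sets the lower limit of detection, for counting error only. The 3 libraries had from 10349 to 10367 protein-coding genes at an FPKM of 1 or more. The genes kept by the rule held 99.5% ± 0.00877 of all protein-coding FPKM. Their median FPKM was 8.55, with quartiles of 3.88 and 19.2. A further 357 genes reached 1 in some libraries only, 9418 stayed below 1 in all 3, and 4013 of these had 0 reads in all 3.

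**Figure D1:**
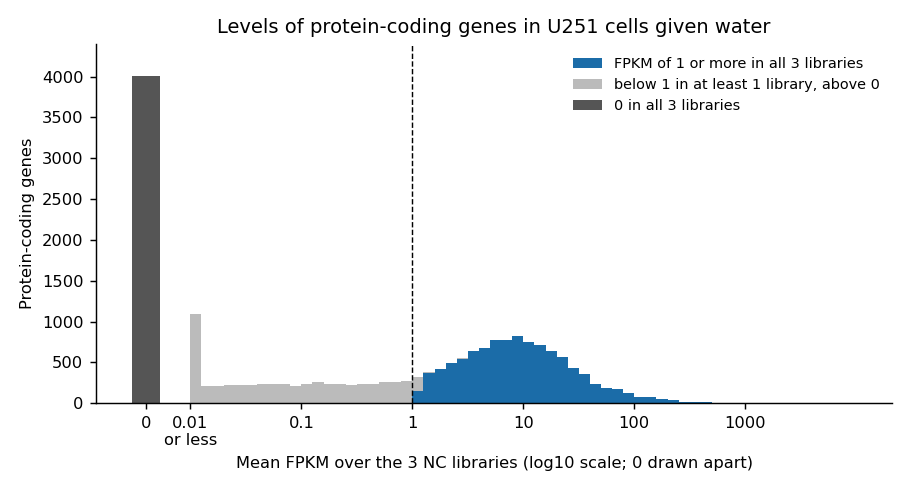
Number of protein-coding genes (vertical axis) by mean FPKM over the 3 NC libraries (horizontal axis, log10 scale, with genes at 0 drawn apart). The 10176 genes with an FPKM of 1 or more in all 3 libraries (blue) form a hump around the median of 8.55, the other detected genes (light grey) form a flat shelf to its left, and 4013 genes (dark grey) had no read.

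The range from 10 to 50 FPKM held 3700 genes, which were 36.4% of those kept, and 31.6% of the protein-coding FPKM. There were 336 genes at 100 or more, and the 15 above 1000 made up 15.3% of the FPKM. The 10 most abundant genes accounted for 12.3% ± 0.120 of the FPKM, the 100 most abundant for 29.5% ± 0.122 and the 1000 most abundant for 60.3% ± 0.290. As a share of reads, which does not divide by gene length, the same 10, 100 and 1000 genes took 3.33% ± 0.0300, 15.5% ± 0.254 and 46.1% ± 0.451.

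Respiratory chain genes of the mitochondrial genome led the list. All 13 were kept, and together they held 12.04% ± 0.211 of the protein-coding FPKM but 2.87% ± 0.0425 of the reads, since they are short. MT-CO1, the catalytic subunit of cytochrome c oxidase, had the highest level of all, with FPKM of 5321, 5410 and 5612 in replicates 1 to 3. MT-CO2 (4430 ± 22.5 FPKM), MT-ND4 (4266 ± 104) and MT-CO3 (3578 ± 73.3) followed. MT-ATP8 was the lowest of the 13, at 36.1 FPKM. It overlaps MT-ATP6, which stood at 3016 ± 71.4, and its 41.8, 40.1 and 26.3 FPKM gave it a place among the genes with the widest spread.

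The nuclear genes among the 30 most abundant fell into a few roles. Actin and its partners were represented by ACTB (2243 ± 90.2 FPKM) and ACTG1 (1667 ± 61.9), the cytoplasmic actins, by TMSB10 (1711 ± 82.7), which binds actin monomers, and by FLNA (779 ± 51.3), which crosslinks filaments. The β-tubulin TUBB stood at 683 ± 26.4 FPKM. FTL, the light chain of the iron store ferritin, reached 1688 ± 12.9. Elongation factors EEF1A1 (1011 ± 17.5) and EEF2 (959 ± 112) and the chaperone HSP90AB1 (903 ± 16.2) stood for protein synthesis and folding. The glycolytic enzymes GAPDH (821 ± 49.5), ENO1 (714 ± 32.5) and PKM (623 ± 21.3) were also among the 30. YBX1, S100A6 and the hair keratin KRT81 were also in the group. KRT81, at 560, 576 and 616 FPKM, stood apart within the keratins, of which 7 of 55 were kept and 34 had no read; its neighbour KRT86, with a near-identical sequence, had 12.04 ± 0.980 FPKM. Levels of genes with close copies, such as the actins, tubulins and keratins, depend on how shared reads were assigned.

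**Figure D2:**
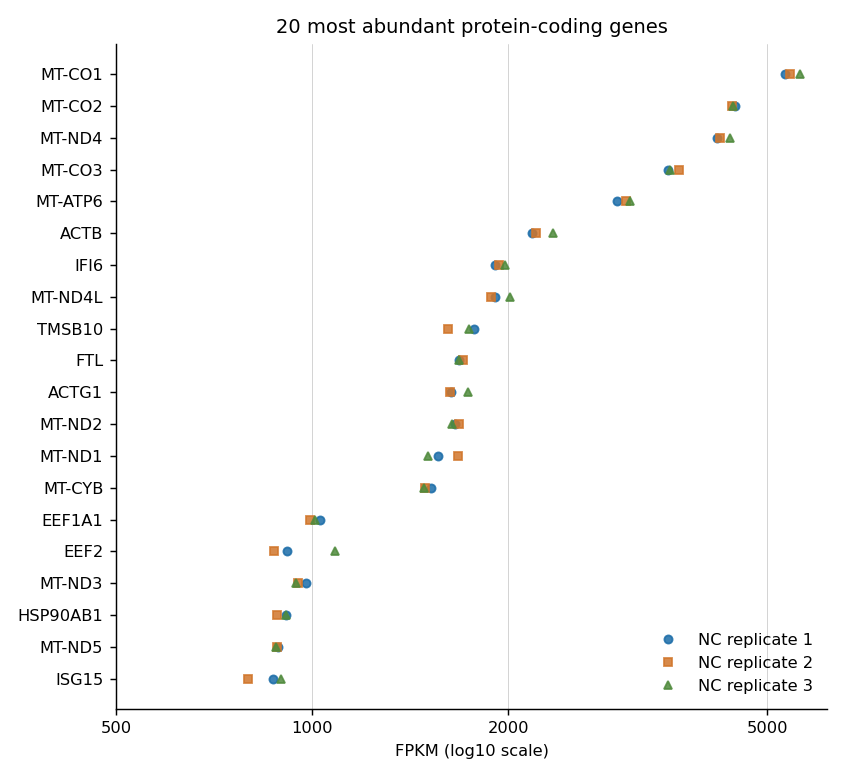
FPKM in each NC replicate (horizontal axis, log10 scale) for the 20 protein-coding genes with the highest mean (vertical axis). Mitochondrially encoded genes fill the first 5 places, and IFI6 and ISG15 stand at places 7 and 20.

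Among the 30 were also 3 genes known to be induced by interferon: IFI6, an inhibitor of apoptosis and viral replication, ISG15, a ubiquitin-like modifier, and BST2, which tethers virions to the cell surface. Their presence led to a list of 48 interferon-stimulated genes, which was written after these values were seen. IFI6 had FPKM of 1909, 1935 and 1979, ISG15 870, 798 and 895, and BST2 722, 654 and 694. These levels placed IFI6 above every nuclear protein-coding gene except ACTB. Stretches of the promoters of these genes and of IFIT1 are shown because interferon-stimulated genes share a response element. The sequences are RefSeq's on GRCh38.p14, run 5′ to 3′ on the gene's strand from 160 to 81 bases before the transcription start, and carry in capitals each match to GAAANNGAA or to its reverse complement TTCNNTTTC.
IFI6, chr1:27672273-27672352, minus strand: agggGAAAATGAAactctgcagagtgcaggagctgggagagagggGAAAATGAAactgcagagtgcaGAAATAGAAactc
ISG15, chr1:1013337-1013416, plus strand: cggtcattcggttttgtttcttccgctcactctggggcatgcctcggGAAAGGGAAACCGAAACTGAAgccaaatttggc
BST2, chr19:17405711-17405790, minus strand: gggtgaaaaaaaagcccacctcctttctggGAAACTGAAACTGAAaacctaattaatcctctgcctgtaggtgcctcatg
IFIT1, chr10:89392463-89392542, plus strand: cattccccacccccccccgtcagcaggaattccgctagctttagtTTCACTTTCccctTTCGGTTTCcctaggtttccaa

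IFI6 held 3 separate matches, ISG15 3 and BST2 2 that overlapped one another, and IFIT1 2, on the other strand. Over windows of 300 bases, from 250 before to 50 after the start, the motif occurred on either strand in 23 of 35 promoters of interferon-stimulated genes kept by the rule (65.7%), against 6.44% of the 8264 promoters of all genes kept and 6.98% of the 14905 promoters of all protein-coding genes. In the whole list, kept or not, it occurred in 24 of 36 promoters (66.7%). Interferon-stimulated genes are known to share this element, so the contrast tells nothing about levels in these libraries. A match is a description of the letters and not evidence of a bound factor.

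Of the 48 interferon-stimulated genes, 46 were kept (95.8%, against 51.0% of all protein-coding genes) and 12 had a mean of 100 FPKM or more. The list was prompted by its leading 3 genes in these same libraries, so its counts and levels are a description only. Together they held 2.75% ± 0.0329 of the protein-coding FPKM, and their median FPKM was 45.0, against 1.31 over all protein-coding genes. Below the leading 3 stood LGALS3BP (527 ± 43.5 FPKM), a secreted galectin ligand, IFITM3 (362 FPKM), which blocks viral entry, and IFI44 (204). IRF9, a transcription factor of the interferon response, was low at 1.12, 1.45 and 1.58 FPKM, with 48.4% of its exonic length shared with other genes. IRF7 (0.390, 0.603 and 0.616 FPKM) and EPSTI1 (0, 0.0124 and 0) fell outside.

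Type I interferons are known inducers of these genes. None of their 17 genes reached 1 FPKM in all 3 libraries, and 10 had no read. IFNB1, which encodes interferon-β, gave 19, 37 and 24 reads, an FPKM of 0.612, 1.31 and 0.870. IFNE had 39, 42 and 39 reads. RNA sensors were expressed, with DDX58 (RIG-I) at 88.9, 88.5 and 90.2 FPKM and IFIH1 (MDA5) at 35.6, 35.7 and 37.7. The DNA sensor CGAS had 0, 7 and 0 reads, although its effector TMEM173 (STING) stood at 10.7, 10.1 and 10.3 FPKM. Of the receptor chains, IFNAR1 had 12.1 ± 0.786 FPKM and IFNAR2 0.106 ± 0.0281, but 83.2% of the exonic length of IFNAR2 is shared with other genes, and the part of this overlap in its value was not tested.

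The label of the line was compared with marker genes of brain and tumour cell types. Of 13 astrocyte markers, 6 were kept (46.2%, against 51.0% of all protein-coding genes). They were the transcription factor SOX9 (43.1, 47.5 and 44.3 FPKM), the gap junction protein GJA1 (36.0, 38.2 and 33.4), the glutamate transporter SLC1A3, the intermediate filament GFAP (8.16, 7.10 and 9.47), the glutamine synthetase GLUL and the lipid carrier FABP7. Of the 7 not kept, AQP4, the water channel, had no read, S100B had 0, 8 and 0 reads, SLC1A2 reached at most 0.0134 FPKM, and ATP1B2 was the highest with a mean of 0.791 FPKM. Stem cell markers had a median of 11.6 FPKM, against 0.791 for the astrocyte list. Of 8, 5 were kept (62.5%), which in so short a list is near the 51.0% of all protein-coding genes. They included the intermediate filament VIM (325, 341 and 362 FPKM), SOX2 (60.8, 58.9 and 66.3) and NES (41.1, 41.9 and 44.4). Of those not kept, PAX6 had a mean of 0.982 FPKM, MSI1 a mean of 0.0845, and PROM1, which encodes CD133, at most 0.0126.

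Mesenchymal markers of glioblastoma were the most complete of the 11 marker lists. Of 18, 17 were kept and 8 had a mean of 100 FPKM or more, with a median of 51.6. They included LGALS1 (493 ± 30.04 FPKM), a galectin, ANXA2 (235 ± 7.20), an annexin, TGFBI (215 FPKM), a matrix protein induced by TGF-β, the AP-1 subunit FOSL1 (168) and the hyaluronan receptor CD44 (133, 136 and 136). The exception was CHI3L1, a secreted chitinase-like protein often used to mark this subtype, at 0.0162, 0 and 0 FPKM. Of 11 proneural markers, 4 were kept, led by SOX4 (13.5, 13.6 and 13.5 FPKM). OLIG2, the defining factor of that subtype, and OLIG1 had no read, and for OLIG2 3 reads would have given 0.0279 FPKM.

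Markers of other cell types were mostly absent. None of 10 microglia and macrophage markers and none of 5 T cell markers was kept, and PTPRC, AIF1 and TYROBP had no read. The microglia list made up 0.000418% of the protein-coding FPKM on average. Of 7 endothelial markers only KDR, a receptor for VEGF, was kept (6.08, 6.22 and 6.64 FPKM), with CDH5 at most 0.143. Of 12 neuronal markers, 4 were kept, among them the neurofilament NEFL (87.2, 91.2 and 93.4 FPKM), whereas STMN2 had no read and RBFOX3 at most 0.00631 FPKM. COL1A2 (116, 115 and 129 FPKM) was high among pericyte and fibroblast markers, in contrast to COL1A1, the other chain of type I collagen (0.535, 0.811 and 0.606), and to COL3A1, which had no read. The oligodendrocyte list kept CNP and PDGFRA, and the epithelial list KRT18.

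**Figure D3:**
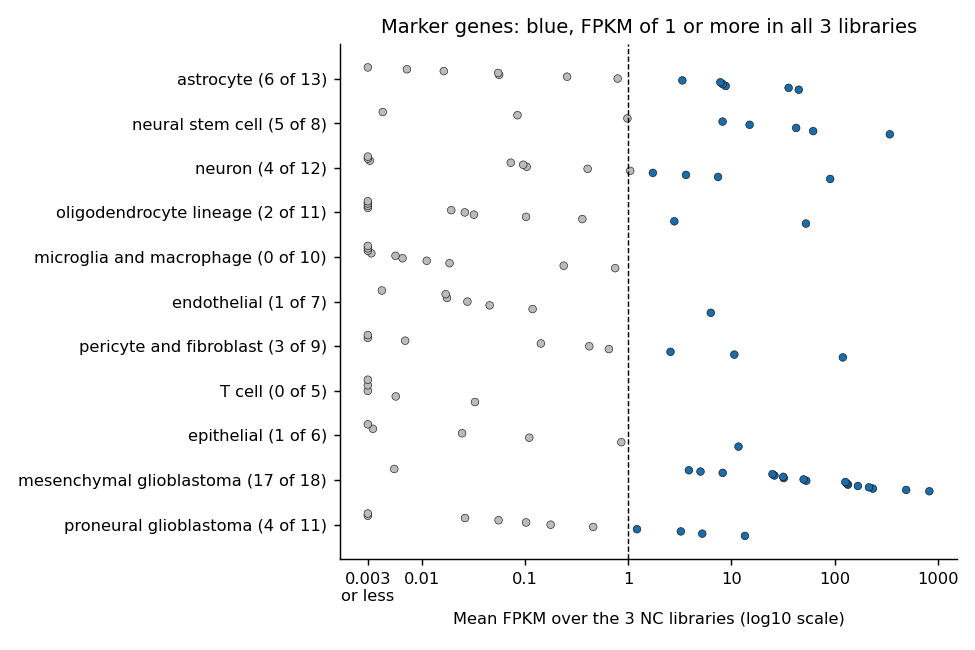
Mean FPKM over 3 NC libraries (horizontal axis, log10 scale, values of 0.003 or less drawn at the left edge) for each gene of 11 marker lists (vertical axis, with genes kept of genes listed). The mesenchymal list lies almost wholly to the right of the threshold of 1 (dashed line), with 17 of 18 genes kept, and the microglia and T cell lists lie wholly to its left.

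Of 30 lineage transcription factors, 19 were kept (63.3%, against 51.0% of all protein-coding genes). NFIX (43.6, 47.5 and 46.4 FPKM), the Hippo effector YAP1 (31.0, 31.6 and 31.4) and POU3F2 followed SOX2 and SOX9. TWIST1 stood at 10.6, 9.43 and 11.6 FPKM, and EMX2 and TWIST2 had no read. HOX genes pattern the body axis and are not a feature of the forebrain. They were present from all 4 clusters, 5 each from clusters of 9 to 11 genes. The shares kept were 45.5% for HOXA, 50% for HOXB and 55.6% for HOXC and HOXD, near the 51.0% of all protein-coding genes. At a threshold of 5 FPKM, 0, 2, 3 and 3 genes of clusters HOXA to HOXD were left. HOXB3 (16.8 ± 0.901 FPKM) and HOXD10 (16.8 ± 1.05) were the highest. Of 19 SOX genes, 9 were kept (47.4%), also near the 51.0%.

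The receptors for TNF-α differed widely. TNFRSF1A, the ubiquitous receptor with a death domain, gave 37.0, 35.4 and 39.5 FPKM from 5361, 4644 and 5085 reads. TNFRSF1B, which is mostly found on immune and endothelial cells, had 0, 0 and 4 reads (0.0110 ± 0.0191 FPKM). The ligand gene TNF itself had 15, 0 and 12 reads, or 0.248, 0 and 0.223 FPKM.

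The family of 28 TNF receptor genes had 8 kept (28.6%, against 51.0% of all protein-coding genes) and a median FPKM of 0.129. TNFRSF12A, the receptor for TWEAK, was the highest with 191, 182 and 196 FPKM. TNFRSF10B, a death receptor for TRAIL, and TNFRSF1A came next, and their ranges overlapped, so that their order does not exceed the spread. LTBR (10.3 ± 0.383), TNFRSF21 (7.68 ± 0.325), FAS (6.83 ± 0.219), RELT (5.11 ± 0.190) and TNFRSF25 (3.97 ± 0.0404) then followed without overlap. TNFRSF10A, the other death receptor for TRAIL, had at most 0.0211 FPKM, and CD40 had no read.

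**Figure D4:**
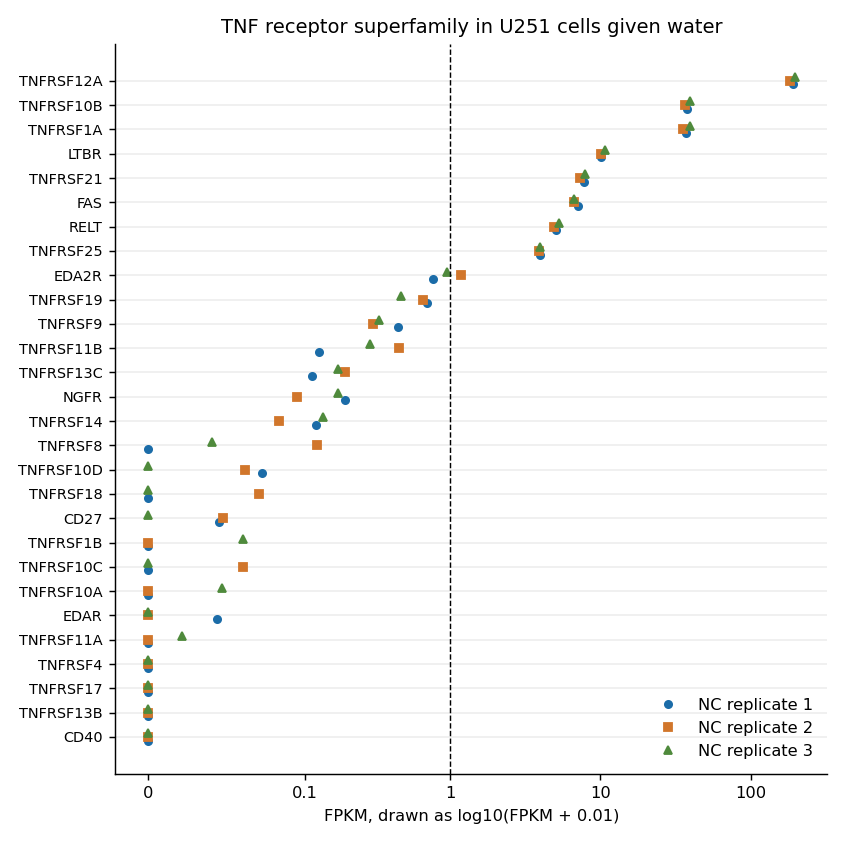
FPKM in each NC replicate for 28 TNF receptor genes, drawn as log10(FPKM + 0.01) with ticks at the FPKM values, against the threshold of 1 (dashed line). A set of 8 genes lies to the right of the threshold, led by TNFRSF12A at 182 to 196 FPKM, and TNFRSF1B lies at or near 0.

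Downstream of the receptors, 30 of 33 TNF signalling genes were kept, with a median of 7.62 FPKM. TRAF2, the adaptor and ubiquitin ligase, stood at 9.92, 10.8 and 12.2 FPKM (mean 11.002, SD 1.17), close to its relative TRAF3 (11.2, 10.8 and 11.4). TAB2 (39.6, 41.0 and 38.9), BIRC2, the cellular inhibitor of apoptosis (31.3, 30.1 and 29.01), the NF-κB subunit RELA (22.6, 23.7 and 25.5) and the kinase RIPK1 (22.1, 21.6 and 22.8) were above it. RIPK3, required for necroptosis, had no read, whereas its substrate MLKL was present at 5.95, 5.33 and 5.64 FPKM. REL stayed at or below 0.602 FPKM.

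Lipid synthesis genes were broadly expressed. FASN gave 86.0, 91.7 and 95.0 FPKM (90.9 ± 4.58) and ranked 370th of all protein-coding genes by mean. ACLY, which makes cytosolic acetyl-CoA, stood at 112, 106 and 123 FPKM, and the elongases ELOVL5 (87.7, 94.9 and 88.1) and ELOVL1 (79.0, 72.2 and 78.3) were near FASN. Of 31 fatty acid genes, 25 were kept, among them SCD (21.3, 23.6 and 21.7), the desaturase, and ACACA (14.4, 14.7 and 16.4), the carboxylase before FASN. ME1, which supplies NADPH, was at 0.0164, 0.0362 and 0 FPKM. Of 27 cholesterol genes, 25 were kept, among them FDFT1, which makes squalene, at 36.3, 33.1 and 34.3 FPKM.

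Of 27 lipid storage genes, 14 were kept, or 51.9%, close to the 51.0% of all protein-coding genes. The droplet coat protein PLIN3 was the highest at 65.0, 62.2 and 74.3 FPKM, but PLIN2, the usual coat protein of droplets in non-fat cells, had 4, 0 and 2 reads, and PLIN5 and CIDEA had none. DGAT1, which makes triglyceride, stood at 4.23, 3.004 and 4.43 FPKM and DGAT2 at 0.434, 0.374 and 0.433.

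Of 28 glycolysis genes, 21 were kept and 7 had a mean of 100 FPKM or more, including TPI1 (301, 289 and 307) and the glucose transporter SLC2A1 (142, 147 and 153). LDHA, lactate dehydrogenase A, had only 5.50, 5.45 and 4.87 FPKM and LDHB 4.57, 5.02 and 4.71. ALDOA was at 1.16, 1.08 and 1.22 FPKM, with 53.5% of its exonic length shared with other genes, whereas LDHA shares none. Whether reads of LDHA were counted in copies elsewhere in the genome was not tested.

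Receptor tyrosine kinases were dominated by few members, with 21 of 54 kept (38.9%, against 51.0% of all protein-coding genes). EPHA2, an ephrin receptor, had 332, 320 and 378 FPKM, and AXL, the receptor for GAS6, 229, 225 and 254. MET (84.7, 84.7 and 84.3) and EGFR (22.8, 23.6 and 24.5) followed, with EPHB4 between them. PDGFRA, common in proneural tumours, had 2.94, 2.71 and 2.75 FPKM, and FLT3 and EPHA7 had no read. Of 36 cytokine receptors, 18 were kept (50%), near the 51.0% of all protein-coding genes. IL13RA2, a decoy receptor for interleukin-13 known from glioblastoma, stood far above the rest at 187, 192 and 186 FPKM. The next, IL6ST, had 25.8, 26.7 and 23.1.

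Other receptor families differed widely in the share kept, which was 51.0% over all protein-coding genes. None of 22 chemokine receptors was kept, and CXCR4 had no read. Among TGF-β and BMP receptors 8 of 14 were kept (57.1%), led by TGFBR2 (34.7, 36.3 and 35.8 FPKM). Among Notch and Wnt receptors 13 of 18 were kept (72.2%), led by NOTCH2 (35.1, 34.7 and 36.3). Of 25 receptors for lysophospholipids, thrombin, adenosine and prostaglandins, 9 were kept (36%). They included the thrombin receptor F2R at 74.97, 80.9 and 82.9 FPKM and ADORA2B at 33.0, 35.1 and 35.1. Only 3 of 10 toll-like receptors were kept (30%), namely TLR4, TLR3 and TLR6. Of 40 glutamate and GABA-A receptor subunits 4 were kept (10%), led by GABRE at 7.49, 7.78 and 7.34 FPKM. Of 27 nuclear receptors, 17 were kept (63.0%), and PPARG had no read.

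Several glioma genes were missing. CDKN2A, which encodes the cell cycle inhibitors p16 and p14ARF, gave 0, 1 and 0 reads, and CDKN2B and CDKN2C gave none. CDKN2A and CDKN2B are neighbours on chromosome 9, and CDKN2A lies at chr9:21967753-21995301 on GRCh38. In the window of 1000 kb to each side, 23 protein-coding genes are annotated, of which 11 had no read and 3 were kept. These 3 were KLHL9 (12.7, 13.0 and 11.3 FPKM), MTAP (7.63, 8.30 and 7.74), which lies next to CDKN2A, and DMRTA1 (2.81, 2.75 and 2.62). MTAP is often lost together with CDKN2A in glioma, and here it was present while CDKN2A was at the limit of detection. Of 16 tumour suppressors, 13 were kept, including CDKN1A (30.5, 29.9 and 30.6 FPKM) and RB1 (15.4, 17.2 and 15.3), which restrain the cell cycle.

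Of 22 glioma oncogenes and drivers, 18 were kept. CCND1, which encodes cyclin D1, stood at 144, 146 and 155 FPKM, whereas CCND2 had at most 0.00852. CDK6 (20.3, 21.4 and 20.0) and CDK4 (20.1, 19.4 and 21.8) overlapped in range. MYC had 21.9, 21.9 and 23.6 FPKM and MYCN no read. TERT, the telomerase catalytic subunit, reached 0.210, 0.186 and 0.210. MGMT, the DNA repair gene whose loss sensitises tumours to temozolomide, had no read in any library, where 3 reads would have given 0.0263 FPKM.

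Part of the MGMT promoter is shown as an example of a gene without reads and with many CG pairs, which are in capitals. The stretch runs from 160 to 81 bases before the start on the plus strand of GRCh38.p14, and DNA methylation was not measured here.
MGMT, chr10:129467081-129467160, plus strand: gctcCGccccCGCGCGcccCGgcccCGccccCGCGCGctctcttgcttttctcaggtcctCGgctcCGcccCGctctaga

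It holds 12 CG pairs, and its 300-base window had a ratio of observed to expected CG of 1.06. A ratio of 0.6 or more was found in 86.7% of the 8264 promoters of the genes kept, in 51.2% of those of detected genes below the threshold and in 26.4% of the 2591 promoters of genes without reads, which number 684. In the same order, TATAAA on either strand occurred in 4.85%, 11.5% and 20.5%. Among the 253 promoters of genes with a mean of 100 FPKM or more, TATAAA occurred in 13.8% and CCAAT in 44.7%, against 4.69% and 36.8% for those kept with a mean below 10. Exonic length also went with level. Its median was 2982 bases for genes at 100 FPKM or more, 4706 at 10 to 100 and 5797 below 10, and it was 2113 for genes without reads. FPKM divides by this length.

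Proliferation genes were complete, with all 40 kept and a median of 51.6 FPKM. CDC20 (193, 190 and 211), CCNB1 (164, 168 and 170), TOP2A (133, 140 and 140) and MKI67 (111, 115 and 117), the antigen Ki-67, were above 100, and the lowest was CCNE2 (3.43, 3.06 and 3.07). Housekeeping families were near complete too. Of 84 cytosolic ribosomal proteins 79 were kept, of 78 mitochondrial ribosomal proteins 75, and of 49 proteasome subunits 44.

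Matrix genes were high, with 29 of 39 kept (74.4%, against 51.0% of all protein-coding genes). They included THBS1 (460, 441 and 502 FPKM), SPARC (245, 242 and 259) and TNC (122, 119 and 140), while MMP9 had at most 0.0118 and BGN 0.237. The connective tissue growth factor CTGF stood at 490 ± 27.4 FPKM and the integrin ITGA3 at 286 ± 24.5. Of 47 growth factors and cytokines matched by symbol 31 were kept (66.0%), with TGFB1 at 104, 107 and 108. This count leaves out CTGF and CYR61 (234, 219 and 254 FPKM), which the list held under newer symbols and which stood above TGFB1. CXCL8, a neutrophil chemokine, was at 30.5, 31.6 and 26.5, IL6 at 0.522, 0.663 and 0.271, and CXCL12 and HGF had no read. Of the antigen presentation list, 13 of 22 were kept (59.1%). B2M, the light chain of class I molecules, was high (320, 315 and 309 FPKM), and the class II genes HLA-DRA and HLA-DQA1 had no read. Of 23 cancer-testis antigens 4 were kept, with MAGEA3 (44.4, 41.6 and 44.0) and its near-identical copy MAGEA6 (42.2, 41.1 and 43.5) the highest.

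Some genes without reads lay in long runs along chromosomes, and whether such runs exceed those of a random order was not tested. Of 386 olfactory receptors none was kept and 362 had no read, and of 94 keratin-associated proteins none was kept and 90 had none. Runs of 10 or more neighbouring protein-coding genes without reads numbered 31 and held 589 genes. The runs named here are the longest whose gene symbols did not all begin with the same letters. Of these, the longest was 49 genes on chromosome 11 (chr11:55343151-57191717), of which 46 were olfactory receptors. The next was 39 genes on chromosome 8, of which 12 were β-defensins. Runs of 35 genes lay on chromosome 1 (chr1:247449118-248408020), mostly olfactory receptors, and on chromosome 21 (chr21:30165564-31038476), with 33 keratin-associated proteins. Among chromosomes 1 to 22 and X, the share of genes kept was lowest on chromosome 21, at 39.0%, and highest on chromosome 13, at 55.8%.

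Genes that share nearly all of their exonic length with other genes were mostly without reads. All 312 protein-coding genes whose whole exonic length is shared with other genes had 0 reads, against 24.7% of the 11097 genes that share none. Of the 213 genes that share above 90% but not all, 63.4% had none. For smaller overlaps, the share without reads was 7.59% for genes sharing up to 10% and 10.5% above 10% and up to 50%. It was 25.7% above 50% and up to 90%. Of the genes in this last class, 17.9% were kept, with a median of 21 reads over the 3 libraries. Genes that share none were kept in 47.1% of cases, with a median of 301 reads. The kept shares were 65.4% up to 10% and 58.0% above 10% and up to 50%. CD68, IFNAR2 and ALDOA each share over 50% of their length, and the part of the overlap in their low values was not tested.

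The replicates lay close together. As a description across the genes kept, Pearson's r of log2(FPKM + 1) was 0.997, 0.997 and 0.995 for the pairs of replicates 1 and 2, 1 and 3, and 2 and 3. The SD of log2(FPKM + 1) over the 3 libraries had a median of 0.07 and a 90th percentile of 0.14. The highest value was at least 1.5 times the lowest in 95 genes, or 0.934%, and at least 2 times in 4. Without replicate 1, 2 or 3 the 95 became 53, 37 and 25. The median coefficient of variation was 5.59%, against 2.54% for counting error alone.

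The 4 included EIF3CL, EIF3C and SIK1B. EIF3CL gave 2.14, 2.27 and 17.6 FPKM and EIF3C 4.10, 12.03 and 5.03. These near-identical copies of a translation initiation subunit were highest in different libraries. SIK1B, a copy of the kinase SIK1, had 1.008, 1.07 and 2.36. CGB5, CT45A1, SOX18, BEX2 and HIST1H2AC were also among the 10 with the widest spread, besides MT-ATP8. At the other end, among genes of 10 FPKM or more, MAN1A2 (10.1, 10.0 and 10.0), UBE2G2 (16.3 in each) and KMT2E (12.1, 12.2 and 12.2) had the smallest. At the threshold, THTPA, LOXL4, CABLES1, UBE3D and TUBA3D lay just inside, with lowest values from 1.0004 to 1.00444, and SCG5, NOTUM, MMAB, PRELID2 and ARHGEF19 just outside, from 0.997591 to 0.999757.

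The spread moved with base composition. In the quartile of genes with the highest GC content of transcripts, replicate 3 exceeded the mean of the other libraries by a median of 0.13 on the log2 scale, and in the lowest quartile it stood at -0.09. Replicate 2 showed the opposite, at -0.09 and 0.09. Replicate 3 was the library farthest from the median in 44.1% of genes. It was the highest for EEF2, FLNA and EPHA2. The part of base composition in these values was not tested.

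**Figure D5:**
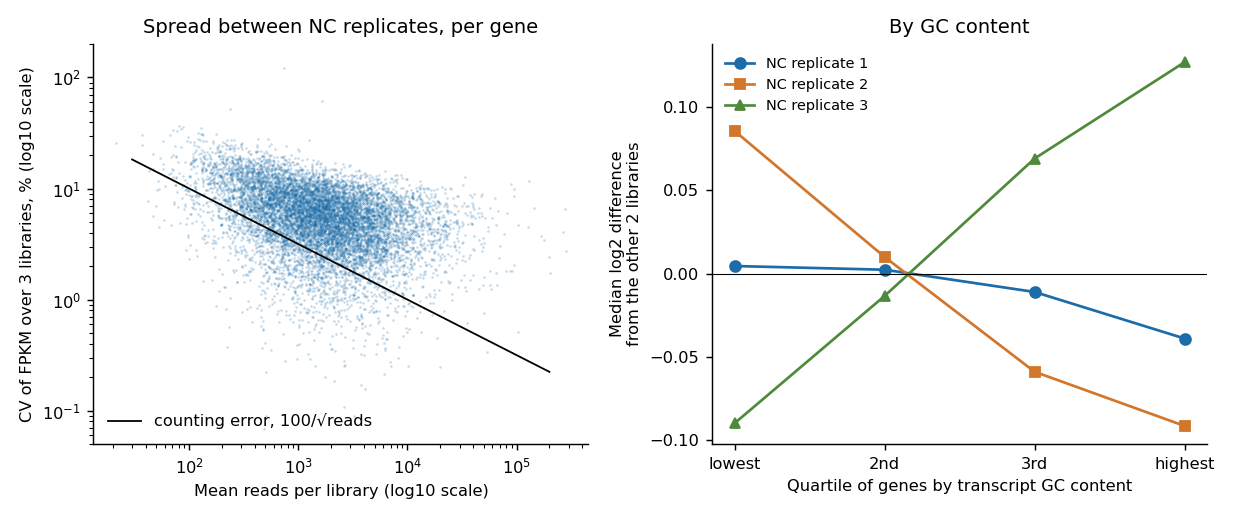
Left, coefficient of variation of FPKM over 3 NC libraries against mean reads per library (both log10 scales) for the 10176 genes, with the counting error as a line. Right, median log2 difference of each library from the mean of the other libraries by quartile of transcript GC content, where replicate 3 climbs from -0.09 to 0.13 and replicate 2 falls from 0.09 to -0.09.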

How the data were processed

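Total RNA from U251 cells was poly(A)-selected and sequenced, and whether counting used strand is not given in the sources used here. The authors deposited FPKM per gene and library. The submitters' processing notes name HISAT2 2.0.5, StringTie 1.3.3b, featureCounts 1.5.0 and GATK 3.7, with no role or order. They also name edgeR and DESeq2, without versions. All gene lengths equalled the merged exons of GENCODE 29 on GRCh38. The table has 6 further columns that match no sample described here, and these were not used. Multiplied by gene length, 100% of the FPKM values came out as whole numbers of 1 library-specific unit (tolerance 0.01), taken as reads. The library size inside the FPKM was 0.925 to 0.959 of the reads in genes. The FPKM are scaled to the merged exonic length, which need not be that of the transcripts expressed. Comparisons between genes are further limited by shared exons, close copies and base composition.

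Values are mean ± SD over 3 libraries. No test was run, since a single group was described. Each gene list (36, plus 26 families and 2 lists added after values were seen) was described by the number of its genes kept. The genes and lists were chosen with earlier results of these data known. Genes named were the 30 most abundant, the TNF-α, TRAF2 and FASN genes, the leading and absent genes of each list and family, those with the widest and narrowest spread, and those nearest the threshold; others were chosen after their values were seen. Some genes that this rule names are not reported here. For 15 duplicated symbols the identifier with the higher level was used. Promoters were matched by Ensembl identifier or symbol to RefSeq windows on GRCh38.p14, the first per gene, for 14905 of 19951 genes. Simulated data tested only an estimate of the spread beyond counting error, which is not given here, and not the spread values that are given. Python 3.11.15, numpy 2.4.6, pandas 2.3.3 and matplotlib 3.10.9 were used.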

Additional observations from a re-analysis of the deposited data

How the results depend on the processing

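A threshold of 5 FPKM left 6687 genes. At 0.5 FPKM, on the mean, in TPM, per unshared exonic length (an alternative chosen after seeing the data) and without each replicate the number ranged from 10233 to 11582. The share of FPKM in the top 10, 100 and 1000 genes was 3.33%, 15.5% and 46.1% as reads and 6.36%, 21.0% and 55.1% without mitochondrially encoded genes. Genes below 0.1 FPKM in all 3 libraries numbered 6664, against 4013 without reads. Pearson's r was 0.998 over all detected protein-coding genes and ranged from 0.995 to 0.997 without each replicate in turn. Without 1 replicate the median SD ranged from 0.0464 to 0.0705, and the genes with a 1.5-fold range from 25 to 53, lowest without NC replicate 3 and highest without NC replicate 1. In TPM, the mean level was 143 for TNFRSF1A, 0.0414 for TNFRSF1B, 0.598 for TNF, 42.2 for TRAF2 and 349 for FASN, a change of scale. Promoters with a CG ratio of 0.6 or more made up 89.4% at a threshold of 5. Of 448 counts of genes kept per list or family, 415 stayed within 1.5 times, and 22 of the other 33 arose at 5 FPKM. No paired analysis was possible because a single group was described. Depth limits statements on genes under 3 reads.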

Other observations

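Genes outside the protein-coding class took 1.59% ± 0.0276 (SD, n = 3) of the reads, and 1255 of 38784 had an FPKM of 1 or more in all 3 libraries. Processed pseudogenes were the largest class among them with 331, followed by 213 antisense and 206 lincRNA genes. The ribosomal RNA gene MT-RNR2 was the highest at 958, 970 and 898 FPKM. RN7SL2, an RNA of the signal recognition particle, gave 656, 499 and 862 FPKM, a spread wider than that of most coding genes. Because the RNA was poly(A)-selected, levels of RNAs without a poly(A) tail are not measured by these values. The pseudogenes MTATP6P1 (616 ± 16.4 FPKM), RPL9P9 (333 ± 4.32) and RPS2P5 (235 ± 14.7) are named as copies of abundant genes, and whether reads of the parent genes were counted in them was not tested. GPX1, the cytosolic glutathione peroxidase, is annotated as a polymorphic pseudogene in this release and stood at 255, 244 and 258 FPKM, outside the protein-coding count.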
